A study of Homo sapiens with 6 samples.

Results

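The ABC genes encode the ATP-binding cassette proteins of human cells, and they were followed here in LS 174T cells with and without propionate. They were taken by symbol: ABC, a subfamily letter from A to G and a number, with 60 or more reads summed over the 6 libraries and the reads of a repeated symbol added together. Of the 24462 symbols in the tables, 46 had this form and 25 of them reached 60 reads. These 25 members were 6 genes of subfamily A, 6 of B, 7 of C, 2 of D, 1 of E and 3 of F, while none of the 5 symbols of subfamily G reached 60 reads. LS 174T is a human colorectal adenocarcinoma line with goblet cell features, labelled at passage 21 to 23. The propionate libraries came from 3 samples of LS 174T cells given propionate at 4 mM for 4 h, and the control libraries from 3 samples of the same line labelled as negative control with no treatment. Nothing in the labels says whether the 3 samples of a group were separate cultures, so the p-values given here set differences against a spread among libraries that could be technical.

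ABC proteins bind and hydrolyse ATP through a conserved cassette. Those of subfamilies A to D and G span membranes and move lipids, bile salts, drugs, glutathione or glucuronide conjugates, peptides, heme or vitamins across them, at the cell surface or in mitochondria, peroxisomes and lysosomes. In the intestine the efflux pumps of subfamilies B and C limit how much of a drug or toxin passes the epithelium. Those of subfamilies E and F have no membrane-spanning part and act on ribosomes and on translation. Propionate is one of the short fatty acids that bacteria of the colon release from dietary fibre.

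The libraries held 12746170, 12597381 and 11645597 reads on genes with propionate, against 11603288, 11824915 and 11921005 in control. Their total depth puts 3 reads at 0.235 to 0.259 CPM, the read count scaled to a common library total, which is the smallest level worth reading from 1 library. All 15 colon epithelial and goblet cell markers looked up had 60 or more reads, and their summed level was 6086 to 6679 CPM with propionate and 5319 to 6104 in control. Of 12 markers of blood, endothelial and connective tissue cells, CD3E, VWF and DCN were at 0, and the summed level of the 12 was 28.9 to 33.4 CPM with propionate and 34.2 to 39.6 in control. The part of these levels in the results below was not tested.

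Among the 25 ABC genes, 7 were higher with propionate and 3 were lower, and 15 did not pass the test. The genes called higher were ABCA2, ABCA3, ABCA5, ABCA7, ABCB1, ABCB9 and ABCC3, and the genes called lower were ABCA12, ABCC5 and ABCE1. The call was an adjusted p under 0.05 in edgeR's quasi-likelihood test over all 13605 genes that passed the filter on low counts, and all 25 members passed that filter. That fit did not pair libraries by replicate number. Propionate moved a large share of all genes: 34.2% of the genes tested were called, 17.2% as higher and 17.0% as lower. Of the members, 40% were called, 28% as higher and 12% as lower. The propionate libraries lay wholly above the control libraries in 8 members and wholly below them in 3, which is 44% of the members beside 45.2% of all genes tested, 22.4% above and 22.7% below. The median log2 fold change of propionate over control was 0.21 over the members, beside -0.01 over all genes tested. Without propionate library 2 this median was 0.13 and 1 member was called lower, and without control library 3 the median was 0.11. After removal of the GC trend, with the replicate number as a block, it was 0.07. Levels below are CPM after scaling between libraries, and a CPM is not divided by transcript length, so it serves to compare groups within a gene and not genes with each other.

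**Figure D1:**
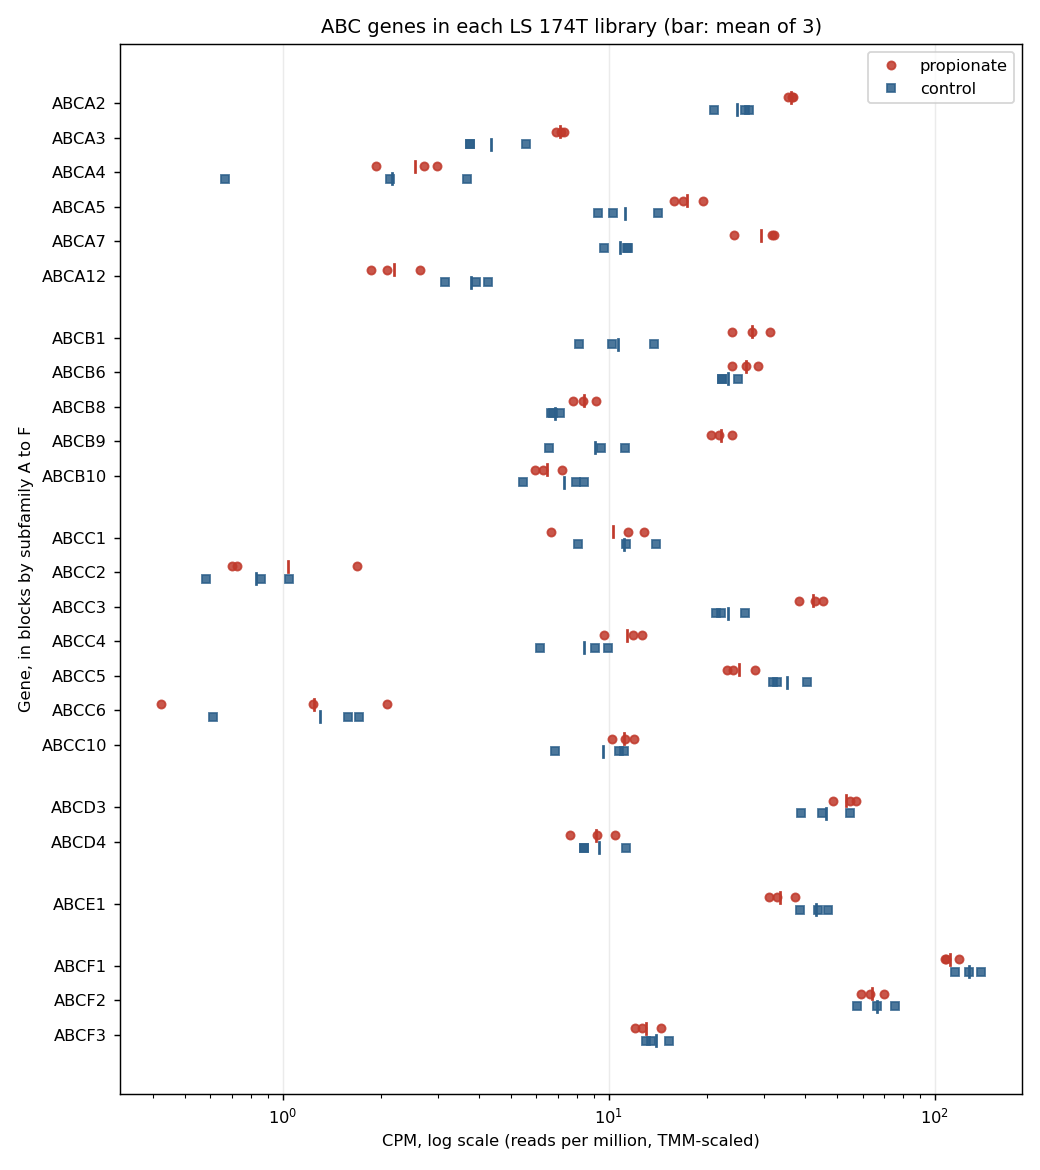
Level of each ABC gene described in each library, in CPM on a log axis, with propionate as circles above and control as squares below, and a bar at the mean of 3. The circles of ABCA7, ABCB1, ABCB9 and ABCC3 stand clear of their squares to the right. Those of ABCC5 lie to the left of their squares, and those of ABCE1 lie just to the left, without overlap.

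Subfamily A held the most calls: 4 of its 6 members rose, 1 fell and 1 did not pass, with a median log2 fold change of 0.59. Summed over the 6 genes, subfamily A came to 94.7 ± 4.99 CPM with propionate and 57.0 ± 3.33 CPM in control (SD, n = 3 each). The sum of subfamily B was 135.6 ± 3.78 CPM with propionate and 107.1 ± 6.59 CPM in control, with 2 members higher, none lower and a median of 0.24. For subfamily C the sums were 102.4 ± 4.66 CPM with propionate and 89.5 ± 7.66 CPM in control, with 1 member higher, 1 lower and a median of 0.22. Subfamily D, with no call, summed to 62.6 ± 5.85 CPM with propionate and 55.6 ± 9.65 CPM in control. ABCE1 and the 3 ABCF genes together had 1 lower call, no higher call and a median of -0.14, and the ABCF sum was 188.6 ± 4.56 CPM with propionate and 207.6 ± 9.39 CPM in control. The 21 members that span membranes had 7 higher and 2 lower calls. These sums and medians are descriptions, and no difference between subfamilies was tested. The calls by subfamily stand beside 17.2% higher and 17.0% lower of all genes tested. The ABCF sum includes ABCF1, the member with a repeated symbol.

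**Figure D2:**
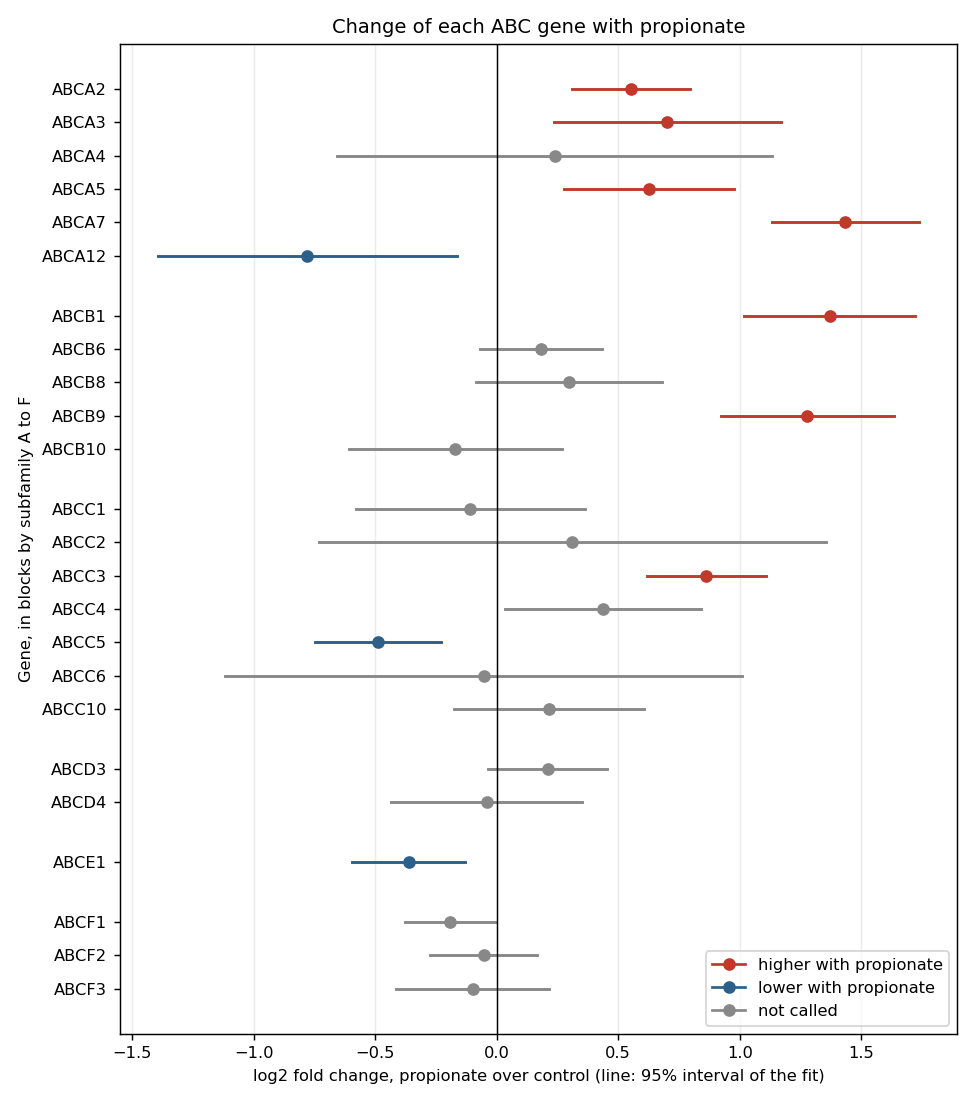
Log2 fold change of propionate over control for each ABC gene described, with the 95% interval of the fit as a line and the call as colour. ABCA7, ABCB1 and ABCB9 lie above 1 on this scale, and the widest intervals belong to the genes with the fewest reads.

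Among the lipid transporters of subfamily A, ABCA7, which moves phospholipid out of the cell membrane, stood at 24.3, 31.7 and 32.0 CPM in the propionate libraries, against 11.4, 9.66 and 11.5 CPM in the control libraries. Every propionate library held more than 2 times the ABCA7 level of any control library. The means were 29.3 ± 4.40 CPM with propionate and 10.8 ± 1.02 CPM in control, a 2.70-fold rise (log2 fold change 1.43 with SE 0.145, adjusted p = 5.4e-07 in edgeR). ABCA2, which acts on lipids in endosomes and lysosomes and is best known from the brain, had 36.5, 36.7 and 35.3 CPM with propionate, against 26.8, 26.2 and 21.0 CPM in control. The propionate libraries were close to each other and above all control libraries, and ABCA2 rose 1.47-fold (log2 fold change 0.55 with SE 0.116, adjusted p = 0.00108 in edgeR). ABCA5, a lysosomal member of the subfamily, had 16.9, 15.8 and 19.4 CPM with propionate, against 10.3, 9.23 and 14.2 CPM in control. Control library 3 was the highest of the controls and still below every propionate library, and ABCA5 rose 1.54-fold (log2 fold change 0.63 with SE 0.168, adjusted p = 0.00675 in edgeR).

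ABCA3, which loads surfactant phospholipid into the lamellar bodies of lung cells, had 6.90, 7.15 and 7.27 CPM with propionate, against 5.59, 3.76 and 3.75 CPM in control. The groups did not overlap, and control library 1 lay nearest to the propionate libraries. ABCA3 rose 1.63-fold (log2 fold change 0.70 with SE 0.223, adjusted p = 0.0197 in edgeR). That call was lost without propionate library 3 (edgeR adjusted p = 0.0507), without control library 2 (0.0761) and without control library 3 (0.0716), in a range of 0.00786 to 0.0849 over all alternatives. ABCA12, which carries glucosylceramide into the lamellar granules of skin cells, had 2.63, 2.09 and 1.86 CPM with propionate, against 3.14, 4.27 and 3.91 CPM in control. Every control library held more ABCA12 than any propionate library, and the gene was 1.72-fold lower with propionate (log2 fold change -0.78 with SE 0.294, adjusted p = 0.0472 in edgeR). Its call was the least stable of the 10: it was lost in 11 of the 15 alternatives that gave it a value, with adjusted p-values between 0.0395 and 0.143. Among these were the fits without propionate library 2 (0.118), propionate library 3 (0.138), control library 2 (0.143) and control library 3 (0.106). ABCA4, the retinoid lipid flippase of photoreceptors, had 1.94, 2.97 and 2.71 CPM with propionate and 3.67, 2.14 and 0.666 CPM in control. Its control libraries spread more widely than the groups differed (95% interval of the log2 fold change -0.66 to 1.13, edgeR adjusted p = 0.710).

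Of the 8 drug and conjugate efflux pumps, 2 rose, 1 fell and 5 did not pass, with a median log2 fold change of 0.26. That is 25% higher and 12.5% lower, beside 17.2% and 17.0% of all genes tested. ABCB1, the P-glycoprotein that pumps many drugs back into the gut lumen, had 31.3, 27.5 and 23.8 CPM with propionate, against 13.7, 10.3 and 8.08 CPM in control. The lowest propionate library lay well above the highest control library. Its means were 27.6 ± 3.73 CPM with propionate and 10.7 ± 2.84 CPM in control, a 2.58-fold rise (log2 fold change 1.37 with SE 0.168, adjusted p = 4.78e-06 in edgeR). ABCC3, which exports glucuronides and bile salts across the basolateral membrane, had 38.2, 45.5 and 43.0 CPM with propionate, against 22.1, 26.2 and 21.3 CPM in control. All propionate libraries were above all control libraries, and ABCC3 rose 1.82-fold (log2 fold change 0.86 with SE 0.116, adjusted p = 1.34e-05 in edgeR). ABCC5, an exporter of cyclic nucleotides and other organic anions, went the other way, with 23.0, 24.1 and 28.1 CPM with propionate, against 31.9, 32.7 and 40.6 CPM in control. No propionate library reached the lowest control library, and ABCC5 was 1.40-fold lower with propionate (log2 fold change -0.49 with SE 0.124, adjusted p = 0.0047 in edgeR).

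ABCC4, which exports cyclic AMP and prostaglandins, had 12.6, 9.63 and 11.8 CPM with propionate, against 9.96, 6.15 and 9.07 CPM in control. The groups overlapped, since propionate library 2 lay below control library 1, although each propionate library was above the control library of its own number. ABCC4 did not pass the test (log2 fold change 0.44, 95% interval 0.04 to 0.84, edgeR adjusted p = 0.0866). With the replicate number as a block it did (edgeR adjusted p = 0.0238), and so it did without control library 1 (0.0470), in a range of 0.00547 to 0.345 over all alternatives. ABCC1, a broad exporter of glutathione conjugates, had a log2 fold change of -0.11 (95% interval -0.58 to 0.36, edgeR adjusted p = 0.751). ABCC10, another drug pump of the C subfamily, had a log2 fold change of 0.22 (95% interval -0.18 to 0.61, edgeR adjusted p = 0.405). ABCC2, the apical conjugate pump, and ABCC6, a pump of liver and kidney, had only 67 and 93 reads over the 6 libraries. Their 95% intervals ran from -0.73 to 1.35 for ABCC2 and from -1.12 to 1.01 for ABCC6. These intervals include a 2-fold rise for both genes and a 2-fold fall for ABCC6. At this depth little can be said of either gene.

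Outside subfamily A, members of the lysosomal, mitochondrial and peroxisomal membranes showed 1 call. ABCB9, a peptide transporter of the lysosomal membrane, had 20.6, 21.8 and 23.8 CPM with propionate, against 6.55, 11.2 and 9.49 CPM in control. The propionate libraries lay within a narrow span far above the controls. ABCB9 averaged 22.1 ± 1.64 CPM with propionate and 9.08 ± 2.35 CPM in control, a 2.43-fold rise (log2 fold change 1.28 with SE 0.170, adjusted p = 1.12e-05 in edgeR). Exons of ABCB9 overlap those of ARL6IP4 and OGFOD2 on the other strand, and without a stated strand setting the reads of such neighbours cannot be told apart. ARL6IP4 averaged 150.9 ± 7.91 CPM with propionate and 141.3 ± 6.22 CPM in control (edgeR adjusted p = 0.395), and OGFOD2 had a log2 fold change of 0.03 (edgeR adjusted p = 0.868). ABCD4, a lysosomal member of subfamily D, takes part in the release of cobalamin (vitamin B12). Its log2 fold change was -0.04 (95% interval -0.43 to 0.35, edgeR adjusted p = 0.889).

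The mitochondrial members ABCB6, ABCB8 and ABCB10 had no call in either direction. For ABCB8, tied to mitochondrial potassium and iron, every propionate library was above every control library, at 7.75, 8.35 and 9.13 CPM with propionate and 6.73, 7.10 and 6.66 CPM in control. It did not pass (log2 fold change 0.30, 95% interval -0.08 to 0.68, edgeR adjusted p = 0.223). ABCB6, a porphyrin transporter, and ABCB10, which takes part in heme synthesis, had log2 fold changes of 0.18 and -0.17 (edgeR adjusted p = 0.263 and 0.573).

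ABCD3, the peroxisomal importer of long and branched acyl-CoA, had 54.9, 48.6 and 57.1 CPM with propionate, against 45.0, 38.9 and 54.9 CPM in control. Both groups were low in library 2 and high in library 3, so that they overlapped while each propionate library was above the control library of its own number. The means were 53.5 ± 4.44 CPM with propionate and 46.2 ± 8.06 CPM in control, and ABCD3 did not pass (log2 fold change 0.21, SE 0.117, 95% interval -0.04 to 0.46, edgeR adjusted p = 0.178). With the replicate number as a block it was called higher (edgeR adjusted p = 0.0298), as it was without control library 3 (0.0263), in a range of 0.000305 to 0.582 over all alternatives.

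Among the soluble proteins, ABCE1, which splits ribosomes into their subunits after termination, was the 1 called. It had 37.1, 30.9 and 32.8 CPM with propionate, against 43.9, 38.6 and 47.0 CPM in control. The groups lay next to each other without overlap, and ABCE1 was 1.29-fold lower with propionate (log2 fold change -0.36 with SE 0.111, adjusted p = 0.0161 in edgeR). The call was lost without propionate library 2 (edgeR adjusted p = 0.0745) and without control library 3 (0.0671), in a range of 0.00172 to 0.159 over all alternatives. Exons of ABCE1 overlap those of ANAPC10 on the other strand, a gene of 302 reads. ANAPC10 averaged 3.44 ± 0.695 CPM with propionate and 4.95 ± 0.603 CPM in control, with every propionate library below every control library, and was not called (log2 fold change -0.52, edgeR adjusted p = 0.123). With the strand setting of the counts not known, its part in the ABCE1 value was not tested. ABCF1, which works with the initiation factor eIF2, had 108.0, 119 and 107 CPM with propionate, against 127, 139 and 115 CPM in control. Propionate library 2 was above control library 3, so the groups overlapped. ABCF1 is the member with a repeated symbol, on 7 lines in propionate library 1, and its reads are the sum of its lines. Whether a read was counted on more than 1 of these lines was not tested. ABCF1 averaged 111 ± 6.42 CPM with propionate and 127 ± 11.7 CPM in control and did not pass (log2 fold change -0.19 with SE 0.089, adjusted p = 0.106 in edgeR). It was called lower with the replicate number as a block (edgeR adjusted p = 0.0104) and without control library 3 (0.0401), in a range of 0.00218 to 0.369 over all alternatives. ABCF2 and ABCF3, the other ABC proteins of this kind, had log2 fold changes of -0.05 and -0.10 (edgeR adjusted p = 0.739 and 0.659).

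Promoter sequence was looked up for all members in RefSeq windows on GRCh38.p14, from 250 bases before to 50 bases after a gene's start, and 21 of the 25 members had an entry, with 28 windows. The letters CCAAT, on either strand, stood in 7 of the 28 member windows and in 34.6% of all 35116 windows. Of the matched members, 3 of 6 called higher held CCAAT (ABCA7, ABCB1 and ABCB9), against 1 of 3 called lower and 3 of 12 not called. Some genes have more than 1 window, which gives them more places for a match. By window, CCAAT stood in 3 of 10 of genes called higher, 1 of 4 called lower and 3 of 14 not called. The GC box letters GGGCGG, on either strand, stood in 17 of 28 member windows and in 45.0% of all windows. By gene, they were in 5 of 6 called higher, 1 of 3 called lower and 9 of 12 not called. By window, these shares were 7 of 10, 1 of 4 and 9 of 14. The E-box letters CACGTG were in 5 of 28 member windows and 7.26% of all, and the TATA box letters TATAAA in 4 of 28 and 11.5%. The median GC content of the member windows was 65.7%, beside 58.7% for all windows. No motif holds another whole, though a CCAAT and a GC box can share end letters, and a match is a description of letters only. The 250 bases before the start are printed for the 3 genes with the largest rise and for ABCC5, 5′ to 3′ on the gene's strand, with these motifs in capitals. ABCC5 was called lower in every alternative fit, though its change is under 2-fold. They are ABCA7 at chr19:1039857-1040106 (plus strand), the downstream of 2 starts of ABCB1 at chr7:87600885-87601134 (minus strand), the middle of 3 starts of ABCB9 at chr12:122974570-122974819 (minus strand) and ABCC5 at chr3:184017885-184018134 (minus strand). For ABCB1 and ABCB9 the start printed is the 1 with CCAAT. The other start of ABCB1 has none of these motifs in its 250 bases. The other starts of ABCB9 have no CCAAT there, but an E-box and a GC box at the first and 6 GC boxes at the last.
ABCA7: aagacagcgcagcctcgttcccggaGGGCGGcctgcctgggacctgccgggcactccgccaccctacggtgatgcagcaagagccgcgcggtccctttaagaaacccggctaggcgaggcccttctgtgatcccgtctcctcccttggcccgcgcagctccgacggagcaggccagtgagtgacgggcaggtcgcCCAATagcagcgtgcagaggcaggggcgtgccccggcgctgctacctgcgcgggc
ABCB1: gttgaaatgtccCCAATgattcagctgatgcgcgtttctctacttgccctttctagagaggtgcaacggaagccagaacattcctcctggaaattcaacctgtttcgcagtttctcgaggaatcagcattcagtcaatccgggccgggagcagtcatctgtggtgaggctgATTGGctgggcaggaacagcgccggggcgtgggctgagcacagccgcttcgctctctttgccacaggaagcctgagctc
ABCB9: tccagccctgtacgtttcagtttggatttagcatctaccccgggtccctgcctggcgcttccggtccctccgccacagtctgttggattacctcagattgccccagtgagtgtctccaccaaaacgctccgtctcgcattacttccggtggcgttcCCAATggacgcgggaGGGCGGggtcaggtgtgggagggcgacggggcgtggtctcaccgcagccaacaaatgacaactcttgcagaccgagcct
ABCC5: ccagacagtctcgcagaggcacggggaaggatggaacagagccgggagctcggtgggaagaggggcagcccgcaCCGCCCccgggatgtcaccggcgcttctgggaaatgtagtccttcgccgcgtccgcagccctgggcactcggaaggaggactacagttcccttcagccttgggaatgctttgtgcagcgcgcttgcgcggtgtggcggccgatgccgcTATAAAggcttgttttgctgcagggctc
ABCA7 and ABCB9 hold a CCAAT and a GC box in the bases printed, and ABCB1 a CCAAT on each strand and no GC box. ABCC5 holds a GC box on the strand opposite to the gene and a TATA box. The windows differ in base composition, so the shares of a GC-rich motif follow GC content as well, and no test was run on them.

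Transcript GC content moved with the fold change over all genes, and it is given here beside the members. With all tested genes ranked by GC content and cut into 5 equal groups, the group with the highest GC (58.1% to 74.7%) had 32.8% higher and 9.21% lower, while the group with the lowest GC had 8.03% higher and 23.1% lower. Of the members, 8 were in the group with the highest GC, and ABCA2, ABCA3, ABCA7 and ABCB9 were the 4 called higher there, with none lower. Median transcript GC was 60.4% for members called higher, 42.6% for members called lower and 52.4% for those not called. ABCB1 at 43.1% and ABCA5 at 33.1% rose with a GC content below the middle of the range. With each library's GC trend removed and the replicate number as a block, the log2 fold change was 1.49 for ABCB1, 1.16 for ABCA7, 1.04 for ABCB9, 0.84 for ABCA5, 0.76 for ABCC3 and -0.48 for ABCC5, all still called. ABCA2 was at 0.30 in that fit and stayed called (edgeR adjusted p = 0.0147), whereas ABCA3 at 0.52, ABCE1 at -0.20 and ABCA12 were no longer called (0.0530, 0.0693 and 0.0826). The calls gained in that fit were ABCC4 at 0.56 and ABCD3 at 0.39, both higher, and ABCF1 at -0.23, lower (edgeR adjusted p = 0.00547, 0.000305 and 0.00218). The median over the members was 0.07 in that fit.

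**Figure D3:**
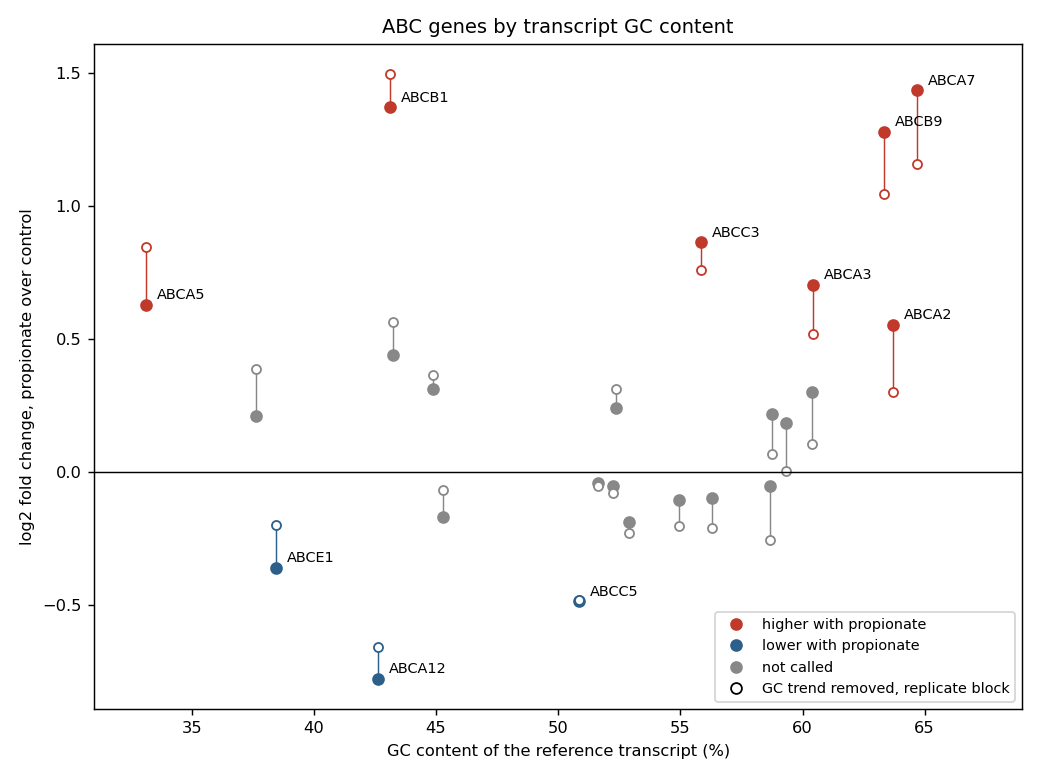
Log2 fold change of propionate over control against GC content of the reference transcript for the ABC genes described, filled for the fit on all libraries and open for the fit with the GC trend removed and the replicate block. Genes rich in GC move down and genes poor in GC move up between the 2 fits, which follows from the correction itself. ABCB1, ABCA7 and ABCB9 stay above 1.

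Partners of the ABC genes were read from lists of known biology. The liver X receptors switch on cholesterol export genes, and of 14 tested receptors, partners and targets on that list 5 were higher and 2 lower. LPCAT3, a phospholipid remodelling enzyme, averaged 102.0 ± 7.53 CPM with propionate and 72.2 ± 7.14 CPM in control (log2 fold change 0.50, edgeR adjusted p = 0.000441). SCD, a fatty acid desaturase, SREBF1, the regulator of lipid synthesis, and the receptor partner RXRA rose by 0.40, 0.40 and 0.39 on the log2 scale. The receptor NR1H2 averaged 10.8 ± 1.91 CPM with propionate and 15.1 ± 1.48 CPM in control (log2 fold change -0.49, edgeR adjusted p = 0.0271), and RXRB was lower too, while NR1H3 did not pass (-0.02, edgeR adjusted p = 0.938).

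The list of xenobiotic sensors and drug-metabolising enzymes had 4 higher and 3 lower calls among 19 tested. The vitamin D receptor VDR averaged 160.9 ± 3.01 CPM with propionate and 105.1 ± 3.05 CPM in control, a 1.53-fold rise (edgeR adjusted p = 8.27e-06). POR, the electron donor of cytochrome P450 enzymes, rose 1.52-fold, and CYP2S1 and CES2 were the others that rose. NFE2L2, the transcription factor of the oxidative stress response, averaged 67.8 ± 7.41 CPM with propionate and 112.6 ± 9.99 CPM in control (log2 fold change -0.73, edgeR adjusted p = 1.21e-05). NR1I2, the pregnane X receptor that induces ABCB1 in liver and gut, averaged 2.31 ± 0.509 CPM with propionate and 4.83 ± 0.645 CPM in control (log2 fold change -1.06, edgeR adjusted p = 0.00597).

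Of the genes around the organelle transporters, mitochondrial heme and iron-sulfur synthesis had 4 higher and 3 lower calls among 21. ALAS1, the first enzyme of heme synthesis, averaged 32.7 ± 1.95 CPM with propionate and 22.5 ± 1.95 CPM in control (log2 fold change 0.54, edgeR adjusted p = 0.00123), and ALAD, UROS and GLRX5 rose too. SLC25A38, a mitochondrial glycine carrier, averaged 30.5 ± 0.36 CPM with propionate and 43.7 ± 5.99 CPM in control (log2 fold change -0.52, edgeR adjusted p = 0.00144), and LYRM4 was lower too. Peroxisomal fatty acid oxidation and membrane partners had 3 higher, EHHADH and ACSL1 among them, and 3 lower (ACBD5, SLC27A2 and AMACR) among 17. Cobalamin uptake and use had 4 lower (MTR, LMBRD1, MMADHC and MMAB) and none higher among 11. LMBRD1, the lysosomal partner of ABCD4, averaged 18.2 ± 1.93 CPM with propionate and 25.1 ± 1.75 CPM in control (log2 fold change -0.46, edgeR adjusted p = 0.00883). Ribosome recycling and GCN2 partners had 2 higher (ZNF598 and EIF2AK4) and 2 lower (EIF2D and IMPACT) among 15. All these counts are to be read against the 17.2% higher and 17.0% lower of all genes tested.

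**Figure D4:**
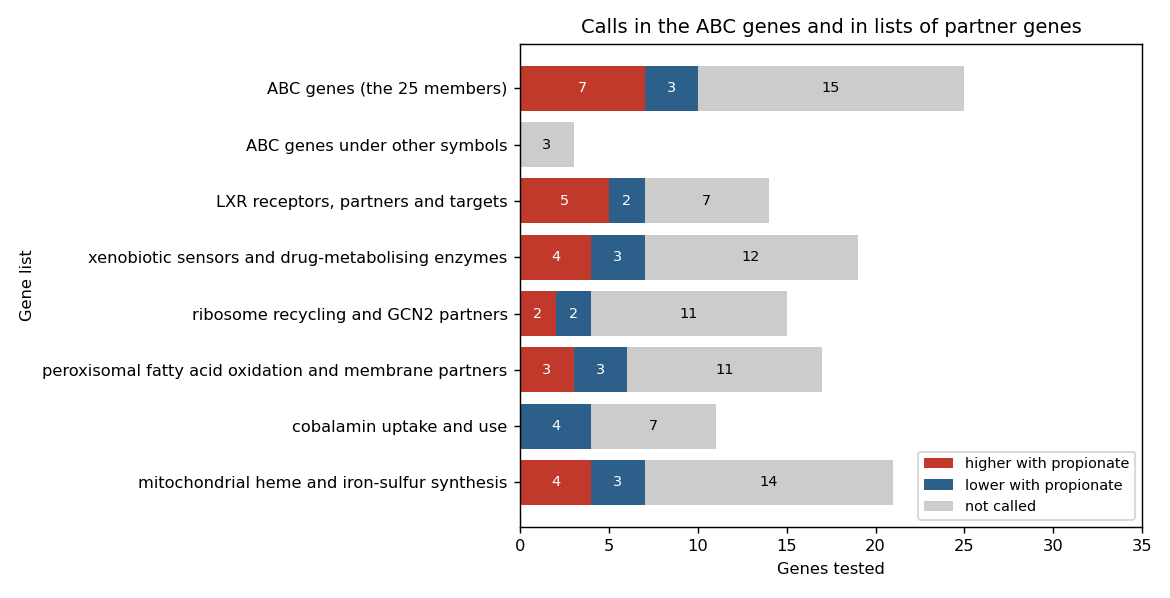
Number of genes called higher with propionate, called lower and not called in the 25 ABC genes and in 7 lists of related genes, by genes tested. The ABC genes show 7 higher and 3 lower calls, and the cobalamin list shows lower calls and no higher one. Over the alternative fits the cobalamin list had 0 to 2 higher and 2 to 4 lower calls. Of all genes tested, 17.2% were higher and 17.0% lower.

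Some ABC genes carry other symbols and are not members. TAP1, TAP2 and CFTR, the antigen peptide transporter subunits and the chloride channel of the gut epithelium, were all tested and none passed. TAP1 averaged 32.6 ± 0.544 CPM with propionate and 32.0 ± 2.62 CPM in control (log2 fold change 0.03, edgeR adjusted p = 0.867). TAP2 averaged 66.4 ± 2.10 CPM with propionate and 73.9 ± 3.86 CPM in control (log2 fold change -0.15, edgeR adjusted p = 0.192). CFTR averaged 17.8 ± 1.18 CPM with propionate and 19.3 ± 2.72 CPM in control (log2 fold change -0.12, edgeR adjusted p = 0.558).

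The 21 symbols under 60 reads had 256 reads in all, beside 42643 on the members. Just inside the threshold were ABCC2 with 67 reads and ABCC6 with 93, and outside it were ABCA1 with 50 and ABCG1 with 41. ABCA1 and ABCG1 are the cholesterol exporters best known as liver X receptor targets. ABCA1 had 0, 10 and 8 reads with propionate and 13, 8 and 11 in control, and ABCG1 had 12, 12 and 11 reads with propionate and 2, 2 and 2 in control. No test is given for genes under the threshold. ABCA6, ABCB11, ABCC12 and ABCD2 had no read. ABCC6 has near-identical copies, ABCC6P1 and ABCC6P2, with 17 and 12 reads, so its reads may be split between them. The exons of ABCA5 overlap those of ABCA10, which had 8 reads, and those of ABCC10 overlap DLK2, which had 473 reads and was not called (edgeR adjusted p = 0.288). In bulk RNA of a culture, fewer cells with a transcript and less of it per cell cannot be told apart, and this holds for every change above.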

How the data were processed

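The 6 LS 174T libraries were built with a Lexogen kit, each from 500 ng RNA, per the labels' protocols. The kit was taken here as QuantSeq, which reads near the 3' end of transcripts. Its catalogue number may belong to another kit, so reading near the 3' end is not certain. The authors deposited raw counts per gene symbol, 1 table of 25737 lines per library. Per the submitters' processing notes, Bowtie2, edgeR, hg19 and GRCh37 were used, with no role or version; the sources used here do not give the counter, its strand setting or the annotation. Groups came from sample titles, replicate numbers from the marks that tell titles apart.

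Repeated symbols were summed. With edgeR 4.0.16 in R 4.3.3, genes were filtered by filterByExpr, scaled by TMM and tested by the quasi-likelihood F test (13605 genes, Benjamini-Hochberg, adjusted p under 0.05). SE was the log2 fold change over the root of F. Alternatives were other scalings, DESeq2 1.42.0, limma 3.58.1 (voom), filters, thresholds, a replicate block, removal of each library's GC trend (GENCODE v29 transcripts, a spline of 4 degrees of freedom, 12709 tested genes with a value) and leaving out each library; the GC correction without the block was chosen after seeing the data. The code was tested on simulated data.

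Deviations from group means correlated at 0.238, 0.393 and 0.440 between propionate and control libraries of the same number, and at -0.352 to 0.0106 otherwise, over genes. The replicate block takes these numbers to pair libraries, whereas the main fit and its calls are unpaired. No label states a shared day. Members, lists and tests were chosen with earlier results of these data known. Called members, and the member with the highest mean CPM in each subfamily, are given in full; in the lists, called genes could be named, at most 4 per direction by smallest p, and CFTR, TAP1 and TAP2 always. A few genes are not reported here. Further members were named with values after these were seen. Intervals of fold changes come from the edgeR fit and include the spread among libraries; the floor of 3 reads covers counting error only.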

Additional observations from a re-analysis of the deposited data

How the results depend on the processing

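Of the 10 called members, ABCA2, ABCA5, ABCA7, ABCB1, ABCB9, ABCC3 and ABCC5 kept an adjusted p under 0.05 in all 16 alternative fits, and none of the 10 changed direction. The stricter thresholds given below are not among these 16. ABCA12 was lost under upper-quartile factors (adjusted p = 0.0551), library totals (0.0526), DESeq2 (0.0704), limma-voom (0.0506), no filter (0.0514) and both GC corrections (0.0826 with the block, 0.0937 without), beside 4 fits without a library; ABCA3 and ABCE1 were lost under the GC correction without the block too (0.0849 and 0.159). The cause was not tested. Of 396 values of single members over all alternatives, 364 kept their side of the threshold, 20 lost the call and 12 gained it. The sign of ABCA4, ABCC1, ABCC2, ABCC6, ABCD4 and ABCF2, none of them called, flipped in 1 to 3 alternatives each. With the replicate block 9 members were higher and 4 lower, and over all genes 2980 higher and 3074 lower, against 2343 and 2316 without it; ABCC4, ABCD3 and ABCF1 were the calls gained and no call was lost. At a 2-fold minimum change 3 members were higher and 0 lower, and over all genes 681 higher and 270 lower; at an adjusted p under 0.01 there was 1 lower member, with 1424 lower over all genes. Leaving out 1 library at a time gave 6 to 8 higher and 1 to 3 lower members, with 1 lower without propionate library 2, and a member median of 0.11 to 0.19. The median of the members, 0.21, was 0.066 with the GC trend removed and the block, and 0.047 without the block. No scaling moved the median of all genes by over 0.1. Counts in the partner lists ranged over the alternatives from 4 to 8 higher and 1 to 3 lower for liver X receptors, 2 to 7 and 2 to 5 for xenobiotic genes, 4 to 7 and 2 to 4 for heme and iron-sulfur, 0 to 5 and 3 to 5 for peroxisomal, 0 to 2 and 2 to 4 for cobalamin, 0 to 4 and 0 to 2 for ribosome recycling. ABCA4, ABCA12, ABCC2 and ABCC6 have a mean at or under 5 CPM and got no value in the fit above that level; depth limits what can be said of them.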
